A study of Bos taurus with 6 samples.

Results

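The NOTCH receptors NOTCH1, NOTCH2, NOTCH3 and NOTCH4 and the ligands DLL1, DLL3, DLL4, JAG1 and JAG2 were followed in bovine late morulae, taken 6 days after in vitro fertilization. They were found by gene symbol, and all 9 had 1 row each among the 15371 named rows of the table. The small interfering RNA that each embryo received was directed against NOTCH1 (NOTCH1 knockdown), against RBPJ (RBPJ knockdown), or nonspecific (control), so every group was injected. Each group had 2 libraries of polyadenylated RNA, each from a pool of 15 embryos with an added GFP and RFP messenger RNA spike-in, and nothing in the labels says that the pools came from separate oocyte collections. The p-values below therefore weigh only differences between such pools, and part of these could be technical.

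NOTCH receptors are membrane proteins that bind Delta-like (DLL) or Jagged (JAG) ligands on neighbouring cells. Ligand binding exposes the receptor to cleavage by an ADAM protease and then by gamma-secretase, and the freed intracellular domain enters the nucleus, where it joins RBPJ on DNA and recruits a Mastermind coactivator. The pathway is best known for making neighbouring cells take different fates, and in the mouse blastocyst it acts with the Hippo pathway on the trophectoderm gene Cdx2.

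Values are called scaled read counts here, since they look like reads per gene divided by a factor for each library; this was judged from the values. The factor may also vary between genes, so the reads and counting intervals quoted for a value are approximate. The libraries' totals ran from 10365700 to 10815600, at an approximate depth of 9640000 to 13640000 reads. The deepest was replicate 1 of the RBPJ knockdown, and every other library had at most 10590000 reads. Of the 13 early embryo markers listed, 12 were in the table and all 12 had a mean of at least 10, with POU5F1, a pluripotency factor, between 10911 and 12942. RBPJ, the target of the second small interfering RNA, had 121 and 94.5 in RBPJ knockdown embryos, 361 and 400 in NOTCH1 knockdown embryos, and 447 and 391 in control embryos. It was the single gene called in the RBPJ knockdown against control (log2 fold change -1.96, SE 0.18; limma, adjusted p = 0.00149).

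All 9 receptor and ligand transcripts were detected, but DLL1 and DLL4 stood at only a few reads per library. With a mean over the 6 libraries below 10, both were left out of the tests, so 7 of the 9 were tested. The order of levels is given only between groups of the same gene, because transcript lengths were not used here. In pooled embryos, fewer cells with a transcript and less of it per cell cannot be told apart.

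**Figure D1:**
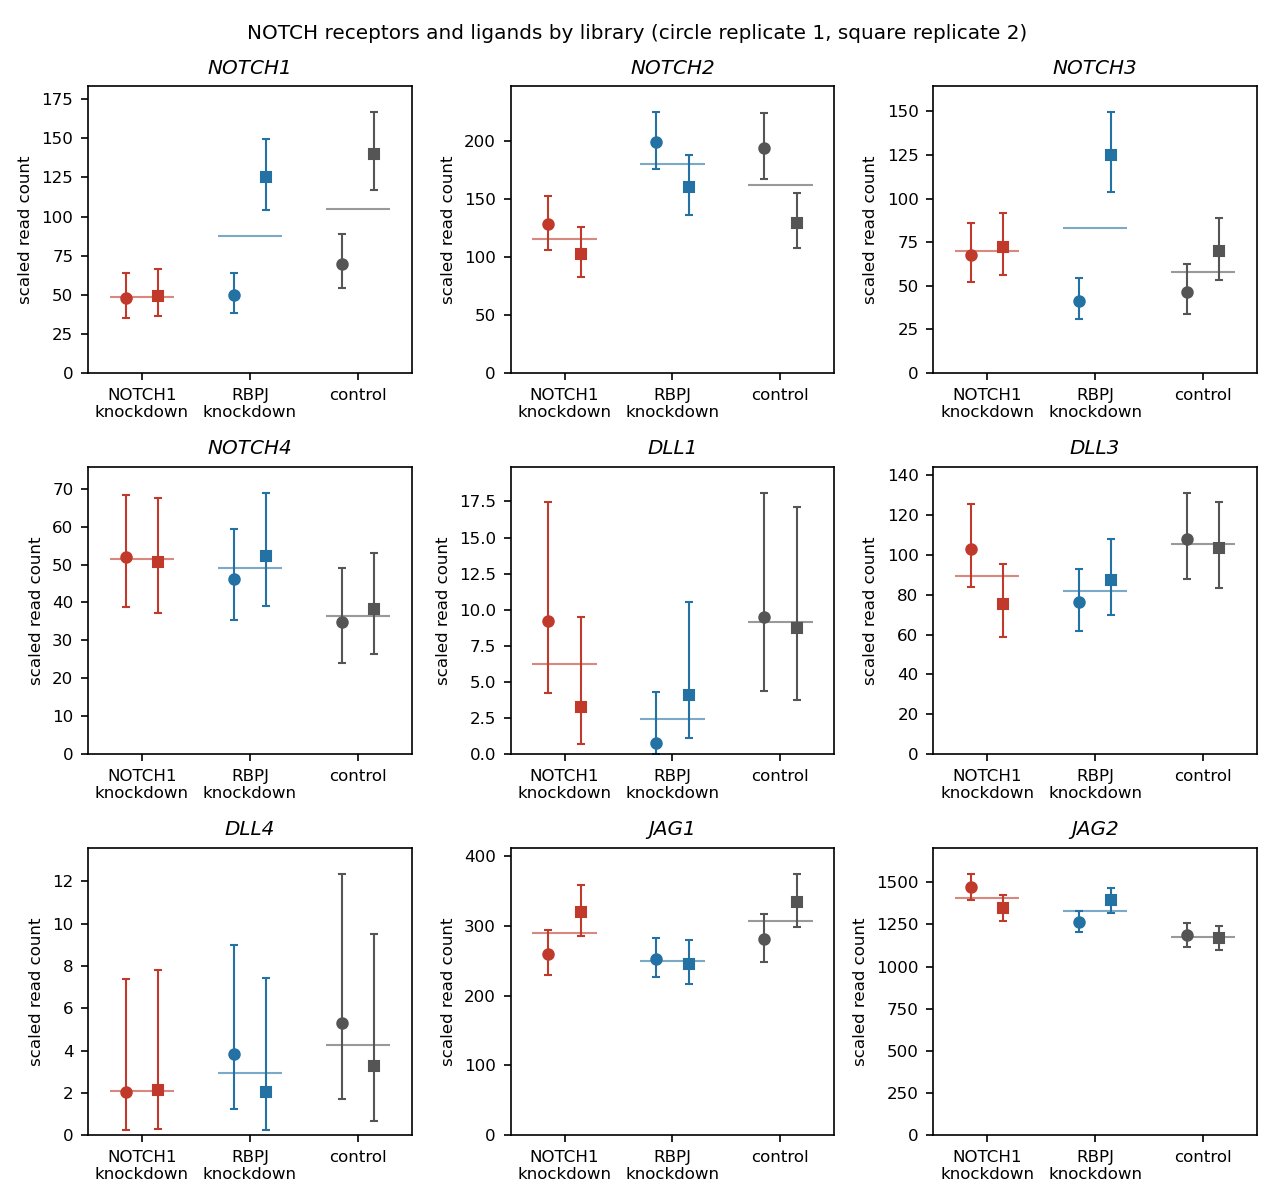
Scaled read count (vertical axes, linear, from 0) of each receptor and ligand in the 2 libraries of the NOTCH1 knockdown, RBPJ knockdown and control groups. Circles are replicate 1, squares replicate 2 and horizontal lines group means, and bars are approximate 95% Poisson intervals that cover counting error only. NOTCH1 and NOTCH3 differ widely between the libraries of the RBPJ knockdown, while all 4 knockdown libraries lie above both control libraries for NOTCH4 and JAG2.

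NOTCH1, the targeted receptor, was low in both libraries injected with its small interfering RNA. It had 48.0 and 49.5 in NOTCH1 knockdown embryos, 50.0 and 125 in RBPJ knockdown embryos, and 69.6 and 140 in control embryos. Both NOTCH1 knockdown libraries lay below every other library, but replicate 1 of the RBPJ knockdown was only just above them. These values rest on about 47 and 46 reads in the NOTCH1 knockdown, 65 and 122 in the RBPJ knockdown, and 66 and 129 in the control. The group means were 48.8 ± 1.04 in the NOTCH1 knockdown and 105 ± 49.6 in the control (SD, n = 2 each), a ratio of 0.466. The log2 fold change, taken like all others on log2(value + 1), was -1.003 with a 95% limma interval of -1.91 to -0.10, and it did not pass (limma, adjusted p = 0.637). It was -0.51 without replicate 2 of the control and -1.50 without replicate 1 of the control. In the RBPJ knockdown NOTCH1 averaged 87.6 ± 53.1 (SD, n = 2), with a log2 fold change against control of -0.31 and an interval of -1.22 to 0.59 (limma, adjusted p = 0.995). That value turned to 0.34 without replicate 1 of the RBPJ knockdown and to 0.18 without replicate 2 of the control, and it was -0.97 without replicate 2 of the RBPJ knockdown.

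The difference between the libraries of a group was wider than counting error for NOTCH1 in the RBPJ knockdown and in the control. The approximate counting interval of NOTCH1 was 38.6 to 63.8 in replicate 1 and 104 to 150 in replicate 2 of the RBPJ knockdown, and 54.0 to 88.9 and 117 to 167 in the control libraries. On the log2 scale the replicates of the RBPJ knockdown differed by 1.31, and 1.67% of all tested genes differed as much there. In the control they differed by 0.99, as much as 4.69% of tested genes. In the NOTCH1 knockdown the difference was 0.04. Of the 12101 tested genes, those with the most similar course to NOTCH1 over the 6 libraries were GK (glycerol kinase), PIEZO1 (a mechanically gated ion channel) and RTL6, with Pearson r of 0.994, 0.990 and 0.989. Since 113 genes reached an r of 0.9, and the 6 points share their groups and replicate numbers, these are descriptions.

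NOTCH3, a receptor best known from vascular smooth muscle, showed the widest replicate difference of the tested receptors and ligands. It had 67.5 and 72.1 in NOTCH1 knockdown embryos, 41.5 and 125 in RBPJ knockdown embryos, and 46.4 and 69.9 in control embryos. The RBPJ knockdown thus held both the lowest and the highest value, and it overlapped both other groups. Its libraries differed by 1.57 on the log2 scale, as much as 0.892% of tested genes. The counting intervals there, 31.3 to 54.3 and 104 to 150, did not meet. The log2 fold change of NOTCH3 was 0.29 (interval -0.64 to 1.22) in the NOTCH1 knockdown and 0.34 (interval -0.59 to 1.27) in the RBPJ knockdown, and neither passed (limma, adjusted p = 0.921 and 0.995). Without replicate 1 of the RBPJ knockdown the NOTCH3 value of that group was 1.12, and without replicate 2 it was -0.45. In the NOTCH1 knockdown it was 0.58 without replicate 2 of the control and -0.0033 without replicate 1 of the control. TPST2, PHF10 and TPBGL followed NOTCH3 most closely over the 6 libraries, with r of 0.988, 0.983 and 0.975.

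Other values also differed between the same libraries. The summed level of 13 maternal transcripts, which the oocyte stores for the early embryo, was 182 and 414 in the NOTCH1 knockdown, 258 and 427 in the RBPJ knockdown, and 455 and 733 in the control. Replicate 2 thus had the higher sum in each group, as it had the higher NOTCH1 and NOTCH3. The list was split in the RBPJ knockdown, where BTG4 alone had 17.7 and 124. There ZP2, ZP3, ZP4 and NLRP5 were lower in replicate 2, FIGLA was at 0 in both, and the others were higher. The 12 early embryo markers summed to 64790 and 56110 in the NOTCH1 knockdown, 58691 and 46561 in the RBPJ knockdown, and 51512 and 49013 in the control. KRT8, a keratin of the outer epithelium, had 16107 in replicate 1 and 7578 in replicate 2 of the RBPJ knockdown. The approximate depth of these 2 libraries was 13640000 and 10160000 reads. The part of these in the NOTCH1 and NOTCH3 values was not tested.

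**Figure D2:**
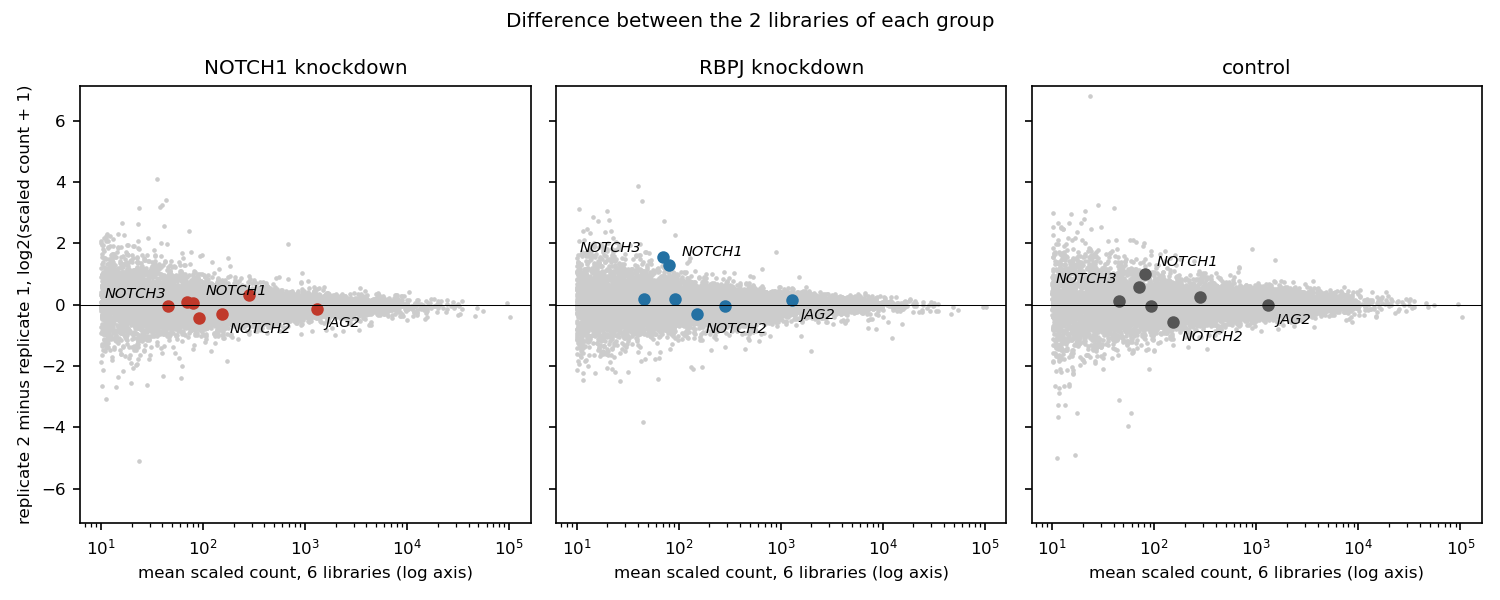
Difference between replicate 2 and replicate 1 on the log2(scaled count + 1) scale (vertical axes) against the mean scaled count over 6 libraries (horizontal log axes) in the NOTCH1 knockdown, RBPJ knockdown and control. Grey points are the 12101 tested genes and coloured points the 7 tested receptors and ligands. NOTCH3 and NOTCH1 sit at 1.57 and 1.31 in the RBPJ knockdown, where 0.892% and 1.67% of all tested genes, whatever their level, differed as much.

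NOTCH2, a receptor that shares most of its domain layout with NOTCH1, was lowest in the NOTCH1 knockdown. It had 128 and 102 in NOTCH1 knockdown embryos, 199 and 160 in RBPJ knockdown embryos, and 193 and 129 in control embryos. The counting intervals of the control libraries, 167 to 224 and 107 to 155, did not meet. The NOTCH1 knockdown libraries lay below both RBPJ knockdown libraries, but the higher of them, at 127.8, was close to the lower control, at 129.5. The log2 fold change was -0.47 (interval -0.99 to 0.06) in the NOTCH1 knockdown against control (limma, adjusted p = 0.731), and it was -0.18 without replicate 1 and -0.75 without replicate 2 of the control. Between the NOTCH1 and RBPJ knockdowns it was -0.64 (interval -1.16 to -0.11), again without passing (limma, adjusted p = 0.999). In the RBPJ knockdown against control it was 0.17 (interval -0.35 to 0.70; limma, adjusted p = 0.995), and without replicate 2 of the control -0.11. MYO6, RALGAPA1 and DNMBP followed NOTCH2 most closely, with r of 0.989, 0.985 and 0.981.

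NOTCH4, a receptor best known from endothelium, was higher in every knockdown library than in either control library. It had 52.1 and 50.6 in NOTCH1 knockdown embryos, 46.1 and 52.3 in RBPJ knockdown embryos, and 34.8 and 38.2 in control embryos. The group means were 51.4 ± 1.09, 49.2 ± 4.39 and 36.5 ± 2.40 in the same order of groups (SD, n = 2 each). All of these rest on 33 to 60 reads, and the counting intervals of all 6 libraries overlapped, between 24.0 and 68.9. On the log2 scale NOTCH4 differed from the control by 0.48 (interval -0.18 to 1.14) in the NOTCH1 knockdown and 0.42 (interval -0.24 to 1.08) in the RBPJ knockdown, and neither passed (limma, adjusted p = 0.779 and 0.983). Both comparisons use the same 2 control libraries. Taken separately, 18.6% of tested genes lay above both controls in the NOTCH1 knockdown and 15.3% in the RBPJ knockdown. The share with all 4 knockdown libraries beyond both controls was not counted, so that pattern has no background here or for the genes below. Leaving out each library in turn, the NOTCH4 value ran from 0.42 to 0.55 in the NOTCH1 knockdown and from 0.33 to 0.51 in the RBPJ knockdown. Of 12 listed endothelial markers 11 were in the table and 10 had a mean of at least 10. They summed to 1884 and 1744 in the NOTCH1 knockdown, 1904 and 1978 in the RBPJ knockdown, and 1241 and 1698 in the control, mostly ROBO4 and PECAM1. VWF ran from 61.6 to 189, KDR from 53.2 to 132, SOX17 from 91.9 to 208, ESAM from 18.5 to 129 and EGFL7 from 53.4 to 81.6. Others were low, with TIE1 from 9.34 to 28.2, TEK from 9.20 to 34.6 and CLDN5 from 10.6 to 25.0. CDH5, an endothelial cadherin, was at 0 in 3 of the 6 libraries and at most at 1.09. Their part in the NOTCH4 values was not tested.

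JAG2, a Jagged ligand, was likewise higher in every knockdown library than in either control library, at 1075 to 1645 reads per library. It had 1471 and 1346 in NOTCH1 knockdown embryos, 1267 and 1393 in RBPJ knockdown embryos, and 1186 and 1170 in control embryos. The knockdown groups overlapped each other, and the controls were within 1.01-fold of each other. The means were 1409 ± 88.4 in the NOTCH1 knockdown, 1330 ± 89.2 in the RBPJ knockdown and 1178 ± 11.5 in the control (SD, n = 2 each), ratios to the control of 1.196 and 1.130 for the knockdowns in that order. Fitted log2 fold changes of JAG2 were 0.26 (interval 0.01 to 0.50) in the NOTCH1 knockdown and 0.17 (interval -0.07 to 0.42) in the RBPJ knockdown, and neither passed (limma, adjusted p = 0.659 and 0.983). Between the knockdowns the JAG2 difference was 0.08 (interval -0.16 to 0.33; limma, adjusted p = 0.999). NOTCH4 and JAG2 had the highest correlation among the 21 pairs of tested receptors and ligands, with a Pearson r of 0.920 over the 6 libraries, while the next pair, NOTCH1 and NOTCH3, reached 0.560. The 6 points share their groups, and no p is given. An r of 0.9 with NOTCH4 was reached by 147 tested genes and with JAG2 by 102, so nothing particular to the pair is read from it. SLC25A39, MAP3K21 and CBARP followed JAG2 most closely, at r of 0.990, 0.986 and 0.983, and SLC16A11, RAB3IL1 and TMEM127 followed NOTCH4, at 0.990, 0.986 and 0.985.

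JAG1, the other Jagged ligand, was lowest in the RBPJ knockdown. It had 260 and 321 in NOTCH1 knockdown embryos, 253 and 246 in RBPJ knockdown embryos, and 281 and 335 in control embryos. The RBPJ knockdown libraries were below all others, and the NOTCH1 knockdown overlapped the control. JAG1 had log2 fold changes of -0.30 (interval -0.67 to 0.08) in the RBPJ knockdown and -0.09 (interval -0.46 to 0.29) in the NOTCH1 knockdown, and neither passed (limma, adjusted p = 0.983 and 0.949). The value of the RBPJ knockdown ran from -0.42 to -0.17 without each library in turn, lowest without replicate 1 and nearest 0 without replicate 2 of the control. In the NOTCH1 knockdown it ran from -0.24 without its replicate 2 to 0.06 without its replicate 1, and it was 0.04 without replicate 2 and -0.21 without replicate 1 of the control. SVIL, ZFP28 and KIF22 followed JAG1 most closely, with r of 0.990, 0.990 and 0.988.

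DLL3, a Delta-like protein that in mouse acts inside the signal-receiving cell as an inhibitor, had a lower mean in both knockdowns, at 89.3 ± 19.6 in the NOTCH1 knockdown and 81.7 ± 7.89 in the RBPJ knockdown against 106 ± 2.97 in the control (SD, n = 2 each). It had 103 and 75.4 in NOTCH1 knockdown embryos, 76.1 and 87.3 in RBPJ knockdown embryos, and 108 and 104 in control embryos. The RBPJ knockdown lay below both controls, whereas replicate 1 of the NOTCH1 knockdown, at 103.2, nearly equalled replicate 2 of the control, at 103.6. DLL3 had log2 fold changes of -0.26 (interval -0.80 to 0.29) in the NOTCH1 knockdown and -0.37 (interval -0.91 to 0.17) in the RBPJ knockdown (limma, adjusted p = 0.869 and 0.983). The NOTCH1 knockdown value was -0.03 without replicate 2 of that group and -0.48 without replicate 1. UFD1, TMEM128 and DNAI1 followed DLL3 most closely, with r of 0.995, 0.989 and 0.985.

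DLL1, a Delta-like ligand of many progenitor tissues, was near the limit of detection. It had 9.20 and 3.23 in NOTCH1 knockdown embryos, 0.769 and 4.10 in RBPJ knockdown embryos, and 9.50 and 8.73 in control embryos. These correspond to about 9 and 3 reads in the NOTCH1 knockdown, 1 and 4 in the RBPJ knockdown, and 9 and 8 in the control. Both RBPJ knockdown libraries were below both controls. The counting intervals of the replicate 2 libraries overlapped, at 1.12 to 10.5 in the RBPJ knockdown and 3.76 to 17.1 in the control. Those of the replicate 1 libraries, 0.0195 to 4.29 and 4.36 to 18.1 in the same order, did not meet. When genes of any level were tested, DLL1 in the RBPJ knockdown had a log2 fold change of -1.75 (interval -3.31 to -0.19). It did not pass (limma, unadjusted p = 0.0315, adjusted p = 0.961). DLL4, a Delta-like ligand best known from growing vessels, had 2.04 and 2.15 in NOTCH1 knockdown embryos, 3.84 and 2.05 in RBPJ knockdown embryos, and 5.28 and 3.27 in control embryos. These rest on only 2 to 5 reads per library. Both NOTCH1 knockdown libraries were below both controls, and the RBPJ knockdown overlapped the control. In the same test of genes of any level, the log2 fold change of DLL4 was -0.74 (interval -2.12 to 0.64) in the NOTCH1 knockdown. In the RBPJ knockdown it was -0.43 (interval -1.81 to 0.95), and neither passed (limma, adjusted p = 0.847 and 0.977).

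**Figure D3:**
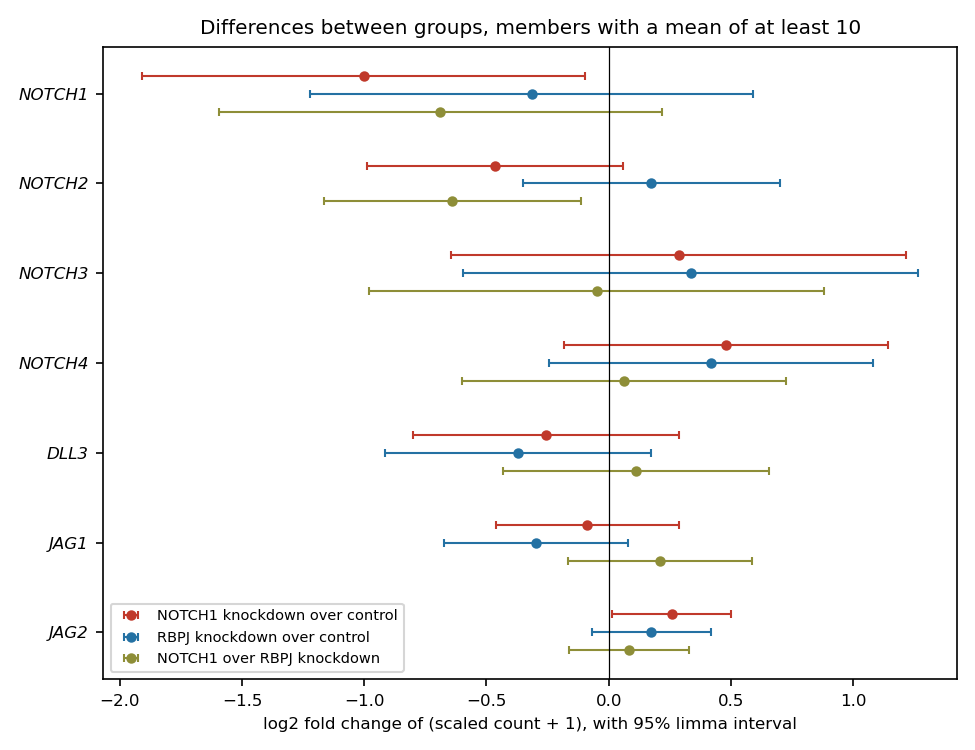
Log2 fold change of (scaled count + 1) on the horizontal axis for the 7 tested receptors and ligands, with 95% limma intervals as bars, for the NOTCH1 knockdown over control, the RBPJ knockdown over control and the NOTCH1 over the RBPJ knockdown. Of the 21 intervals those of NOTCH1 and JAG2 in the NOTCH1 knockdown, and of NOTCH2 between the knockdowns, leave out 0, and none of the 3 passed after adjustment over all genes.

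In the NOTCH1 knockdown against control, limma called 0 of the 7 tested receptors and ligands, against a background of 0% of 12101 tested genes. NOTCH1 and JAG2 were the 2 of the 7 with an unadjusted p below 0.05, as were 7.28% of all tested genes. Which of the 7 reach that level depends on the fit. Without the trend in the moderation it was NOTCH4 alone (limma, unadjusted p = 0.0133, with 0.103 for NOTCH1 and 0.0962 for JAG2), and with the replicate block NOTCH1, JAG2 and NOTCH2 did (limma, unadjusted p = 0.00261, 0.0205 and 0.0261). With the replicate number as a block, 135 genes were called, but again 0 of the 7. Both libraries of the NOTCH1 knockdown lay on the same side of both controls for 5 of the 7, against 35.9% of tested genes. Of these 2 lay above, against 18.6% of tested genes, and 3 below, against 17.2%. In 2 of the 5, NOTCH2 and DLL3, the groups were hardly apart. The median log2 fold change of the 7 was -0.09, beside 0.01 over all tested genes.

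In the RBPJ knockdown against control, limma called 0 of the 7, against a background of 0.00826%, which is RBPJ alone, and 0 had an unadjusted p below 0.05, against 4.33% of all tested genes. This too depends on the fit, as NOTCH4 reached that level without the trend in the moderation (limma, unadjusted p = 0.0229). With the replicate block 12 genes were called, and 0 of the 7. The groups were apart for 4 of the 7, against 32.1% of tested genes. NOTCH4 and JAG2 lay above, against 15.3% of tested genes, and DLL3 and JAG1 below, against 16.7%. The median was 0.17, beside -0.00 over all tested genes. Between the NOTCH1 and RBPJ knockdowns limma called 0 of the 7, against 0.00826%, again RBPJ alone, and 15 genes with the replicate block, 0 of them receptors or ligands. NOTCH2 was the 1 with an unadjusted p below 0.05, as were 3.64% of all tested genes, and the groups were apart for 3 of the 7, against 33.0%. With the replicate block both NOTCH1 and NOTCH2 had an unadjusted p below 0.05 (limma, unadjusted p = 0.0289 and 0.00351). JAG1 lay above in the NOTCH1 knockdown, against 17.5% of tested genes, and NOTCH1 and NOTCH2 below, against 15.5%. The shares of 7 rest on few genes, and nothing particular to the receptors and ligands is read from them.

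The other genes of the pathway comprised 88 symbols in 7 lists, of which 69 were tested. In the NOTCH1 knockdown limma called 0 of the 69, with 11 at an unadjusted p below 0.05, where 881 of all 12101 tested genes (7.28%) were. Of the 69, 40 were higher and 29 lower by sign, with a median log2 fold change of 0.04. In the RBPJ knockdown 0 were called upward and 1 downward, RBPJ itself, with 45 higher and 24 lower by sign and a median of 0.07. There 8 of the 69 had an unadjusted p below 0.05, and 524 of all tested genes (4.33%).

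Genes that sort ligands for endocytosis, the step by which the ligand cell pulls on the receptor, gave 0 calls among 8 tested in either knockdown. Their medians were 0.21 in the NOTCH1 knockdown and 0.04 in the RBPJ knockdown. NEURL1, a ubiquitin ligase whose fly relative acts on Delta, had 13.5 and 15.2 in the NOTCH1 knockdown, 23.1 and 10.6 in the RBPJ knockdown, and 31.4 and 37.9 in the control. All 4 knockdown libraries were below both controls, without passing (log2 fold change -1.22 and -1.09; limma, adjusted p = 0.624 and 0.983). Taken separately, 17.2% of tested genes lay below both controls in the NOTCH1 knockdown and 16.7% in the RBPJ knockdown. EPN2 and EPN1, endocytic epsins, had log2 fold changes of 0.29 and 0.31 in the NOTCH1 knockdown and 0.22 and 0.29 in the RBPJ knockdown.

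All 9 genes of receptor cleavage were tested and 0 were called in either knockdown, with medians of 0.06 in the NOTCH1 knockdown and -0.03 in the RBPJ knockdown. FURIN, which cuts the receptor during its maturation, had a log2 fold change of 0.22 in the NOTCH1 knockdown, and NCSTN, a gamma-secretase subunit, had -0.12 in the RBPJ knockdown. APH1B, another gamma-secretase subunit, had 32.2 and 15.5 in the RBPJ knockdown and 30.7 and 28.5 in the control, a log2 fold change of -0.39 with an interval of -1.30 to 0.53 (limma, adjusted p = 0.989). Enzymes that attach sugars to receptors and ligands gave 0 calls among 7 tested, with medians of 0.01 and 0.19, and GXYLT2, a xylosyltransferase, had 0.16 in the NOTCH1 knockdown.

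Among atypical ligands and modulators 4 of 11 were tested and 0 called. CCN3, a secreted protein that can bind NOTCH1, had 43.9 and 72.1 in the NOTCH1 knockdown, 38.4 and 72.9 in the RBPJ knockdown, and 22.2 and 31.6 in the control. All 4 knockdown libraries were above both controls, without passing (log2 fold change 1.06 and 0.97; limma, adjusted p = 0.599 and 0.983). Among 11 tested genes of receptor turnover and inhibition 0 were called. NUMBL, a relative of the NOTCH inhibitor NUMB, had 167 and 153 in the NOTCH1 knockdown, 151 and 224 in the RBPJ knockdown, and 78.1 and 121 in the control. Again both groups lay above the control without passing (log2 fold change 0.71 and 0.91; limma, adjusted p = 0.571 and 0.983).

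Of 14 tested genes of the nuclear complex, RBPJ was the 1 call, in the RBPJ knockdown. L3MBTL3, a corepressor that binds RBPJ, had 126 and 152 in the NOTCH1 knockdown, 208 and 182 in the RBPJ knockdown, and 226 and 204 in the control (log2 fold change in the NOTCH1 knockdown -0.63; limma, adjusted p = 0.475). SPEN, another corepressor of RBPJ, had a log2 fold change of 0.32 in the RBPJ knockdown. Of 17 tested target genes, NOTCH3 among them, 0 were called in either knockdown, with medians of 0.04 and 0.16. In the NOTCH1 knockdown 9 of the 17 were higher and 8 lower by sign, and in the RBPJ knockdown 11 were higher and 6 lower. An unadjusted p below 0.05 was reached by 6 of the 17 in the NOTCH1 knockdown, against 7.28% of all tested genes. In the RBPJ knockdown it was reached by 3, against 4.33%. Counts out of 17 rest on few genes, and no target response is read from them. The 3 smallest in the NOTCH1 knockdown were those of MYC, a growth-promoting transcription factor, GATA3, a trophectoderm transcription factor, and HEYL, a repressor of the HES and HEY family, with log2 fold changes of -0.94, 0.78 and 0.90 (limma, adjusted p = 0.465, 0.469 and 0.535). The family went both ways, as HES1, HES2, HES6 and HES7 had 0.27, -0.09, -0.18 and -1.98 there, and HEY1 and HEY2 -0.41 and -0.77. HES7 had 8.22 and 62.5 in the 2 control libraries. CDX2, the trophectoderm gene named above, had 976 and 832 in the NOTCH1 knockdown, 682 and 624 in the RBPJ knockdown, and 654 and 744 in the control (log2 fold change in the NOTCH1 knockdown 0.37; limma, adjusted p = 0.570). ID3, an inhibitor of basic helix-loop-helix factors, had 7.14 and 35.6 in the NOTCH1 knockdown, 9.23 and 24.7 in the RBPJ knockdown, and 47.6 and 51.0 in the control (log2 fold change in the RBPJ knockdown -1.63; limma, adjusted p = 0.983). ID1 of the same family had a log2 fold change of 0.65 in the RBPJ knockdown, and HEYL 0.69. In that knockdown HES1, HES2, HES6 and HES7 had 0.21, 0.43, 0.13 and -0.78, and HEY1 and HEY2 had 0.37 and -0.55.

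**Figure D4:**
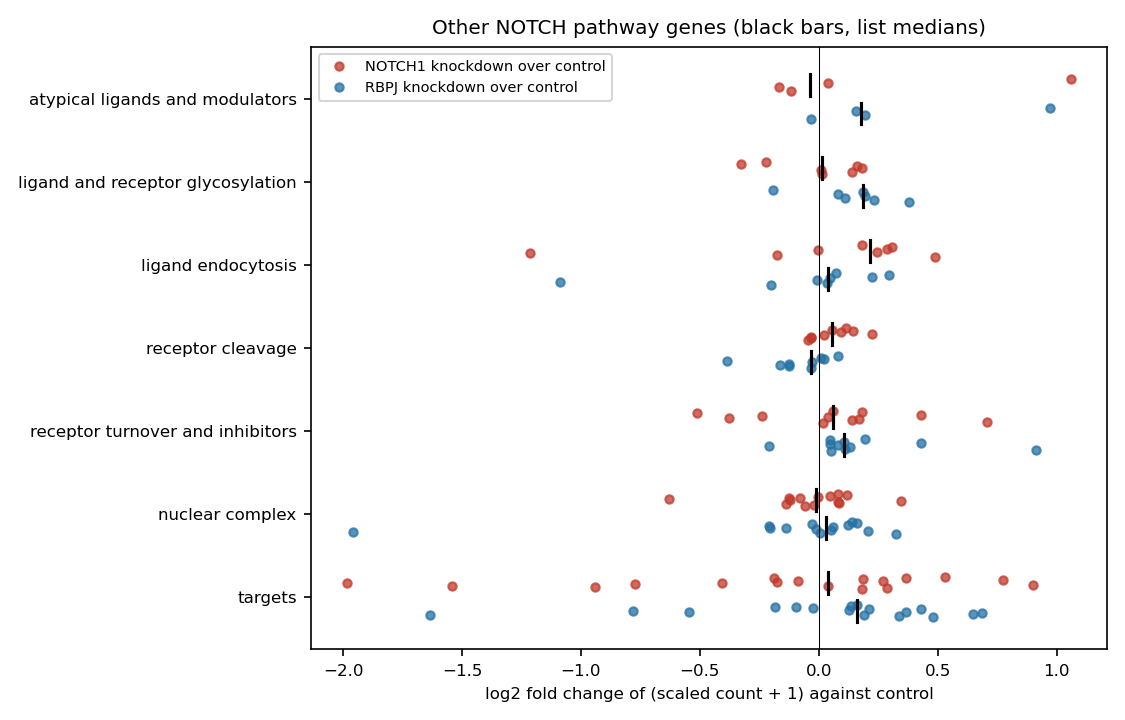
Log2 fold change of (scaled count + 1) against control (horizontal axis) of the other NOTCH pathway genes by list (the targets also hold NOTCH3), for the NOTCH1 knockdown and the RBPJ knockdown, which share the control libraries. Each point is a gene and black bars are list medians, which lie between -0.04 and 0.21. The point at -1.96 in the nuclear complex is RBPJ, the single call.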

How the data were processed

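The deposited table holds 1 signal value per gene and library, judged from the values to be reads per gene after division by a factor the authors took for each library, which may also differ between genes. The submitters' processing notes list Salmon 0.14.1, DESeq2 and ARS-UCD1.2 as the build, without saying which step each served. Annotation and filters: not given in the sources used here. Within a tolerance of 0.1, 80.6% to 82.6% of low values were whole multiples of a step per library. This was too few to recover reads, so no count test was run; quoted reads are values divided by that step, and their Poisson intervals cover counting error only. The 2551 of 17922 rows that carry no name, with 6.20% to 7.22% of each library's sum, were not used. For the 57 repeats of a symbol the row with the highest mean kept it; no receptor or ligand was repeated. In the RefSeq gene table, of build ARS-UCD2.0, pseudogenes overlap NOTCH2 and JAG1; shared reads would not show in the values. Rows of GFP or RFP and sequences were not used here.

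The 12101 rows with a mean of at least 10 were tested as log2(value + 1) with limma 3.58.1 in R 4.3.3 (group means over 6 libraries, trended variance, two-sided, Benjamini-Hochberg adjustment over all rows, threshold 0.05), after the fit had been checked on simulated counts. That check used independent libraries and changes larger than those fitted for the receptors and ligands. It does not show how well changes of their size are detected. Same-numbered libraries deviated together over genes (r of 0.149, 0.200 and 0.213 for the 3 pairs of groups), so a fit with the replicate number as a block is quoted where it changes a count of calls. Named genes were the receptors and ligands, the targeted genes, called members of a pathway list or else members among the 3 with the smallest p, and the 3 genes closest in course to each receptor or ligand. KRT8 was named after its values were seen, as were CDX2, the endothelial markers and the HES and HEY genes other than HEYL. The genes and lists were chosen with earlier results of these data known. Alternatives are given in the closing section.

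Marker lists of cumulus and granulosa, fibroblast, blood and sperm cells had 7 of 14, 7 of 9, 3 of 8 and 2 of 6 members at a mean of at least 10. Their summed levels over the 6 libraries ran from 318 to 437, 1447 to 1678, 1154 to 1557 and 22.8 to 38.6. Single genes made up most of 2 of these sums. In the blood list HBA ran from 976 to 1380, while every other member stayed at or below 95.9. In the fibroblast list PDGFRA ran from 830 to 995, while COL3A1 was at most 8.45. The sums are therefore no measure of such cells.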

Additional observations from a re-analysis of the deposited data

How the results depend on the processing

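None of the 21 log2 fold changes of receptors and ligands passed under any of the 10 alternatives (a pseudocount of 0.1 or 10, every row tested, rows with a mean of at least 100, scaling by median of ratios, quantile normalization, a fit of the compared groups alone, moderation without trend, robust moderation, the replicate block) or without any library. The smallest limma adjusted p was 0.109, for NOTCH1 in the NOTCH1 knockdown with the replicate block. Only NOTCH2, JAG1 and JAG2 have a mean of at least 100, so the others have no value there. All 21 kept their direction under those alternatives, but only the pseudocounts, median-of-ratios scaling and quantile normalization altered the log2 fold changes themselves. For NOTCH2 in the NOTCH1 knockdown the value ran from -0.471 to -0.437 under these. The other alternatives left it at -0.465, so a kept direction is no test there. Without each library in turn 13 of the 21 also kept their direction. Leaving out a library of the group not compared likewise left the value unchanged.

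Without each library in turn, 8 changed direction. The log2 fold change ran from -0.0033 to 0.58 for NOTCH3 and from -0.24 to 0.063 for JAG1 in the NOTCH1 knockdown. In the RBPJ knockdown it ran from -0.97 to 0.34 for NOTCH1, from -0.11 to 0.46 for NOTCH2 and from -0.45 to 1.12 for NOTCH3. Between the NOTCH1 and RBPJ knockdowns it ran from -0.83 to 0.74 for NOTCH3, from -0.026 to 0.15 for NOTCH4 and from -0.11 to 0.34 for DLL3. NOTCH1 and NOTCH2 in the NOTCH1 knockdown kept their direction and ran from -1.50 to -0.51 and from -0.75 to -0.18.

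Over all genes, the replicate block raised the count of calls to 135 in the NOTCH1 knockdown, 12 in the RBPJ knockdown and 15 between the knockdowns, and changed no other call. Moderation without the trend left 0 calls in the RBPJ knockdown and 0 between the knockdowns, where RBPJ was lost; the cause was not tested. Without each library in turn the counts ran from 0 to 1, from 1 to 3 and from 0 to 3 in the same order of comparisons. DLL1 and DLL4, at 1 to 9 reads per library, are limited by depth. For NOTCH1 and NOTCH3 in the RBPJ knockdown, and NOTCH1 and NOTCH2 in the control, the replicates differed by more than counting error. An unmet threshold does not show that levels were alike.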
